A study of Mus musculus with 24 samples.

Results

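The 9 genes described here make, package, carry, break down or sense γ-aminobutyric acid (GABA), or set the chloride gradient on which its ion-channel receptors depend. They were chosen by name, with no threshold on their values, and are 9 of the 37074 names on the gene probes. Gad1 and Gad2 encode the glutamate decarboxylases, Slc32a1 the vesicular GABA transporter, Slc6a13 the plasma membrane transporter GAT2 and Abat the GABA transaminase. Gabbr1 and Gabbr2 encode the subunits of the metabotropic GABAB receptor, and Slc12a2 and Slc12a5 encode the chloride cotransporters NKCC1 and KCC2. Of 56605 gene probes, 20 carried one of these names and 15 were bright enough to be tested, with every gene represented. The probe with the highest mean over the 24 arrays stood for each gene, and its other probes served as a check.

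The arrays compared efferent nerve (EN) fibres, the ventral roots, with afferent nerve (AN) fibres, the dorsal roots, dissected at lumbar segments L4 to L6 from untreated C57BL/6 mice. Both fibres were sampled at postnatal day 0 (P0) and at 1, 3 and 5 weeks (1 W, 3 W and 5 W), which gave 8 groups of 3 arrays. The labels name C57BL/6 and no transgene, deletion or agent, and the study used both sexes and 9 animals for each age. The 3 arrays of a group stand for independent experiments, the sources do not say which animals entered which array, and p-values measure only the spread between these samples. A root holds axons, whose cell bodies lie elsewhere, together with Schwann cells, vessels and covering tissue, and in such bulk tissue fewer cells of a type and less RNA per cell cannot be told apart.

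GABA is made from glutamate by either decarboxylase, loaded into vesicles by the vesicular transporter, and returned to cells or degraded by the transaminase. NKCC1 brings chloride into a cell and KCC2, which is largely restricted to central neurons, extrudes it, so the balance of the pair decides whether opening of the GABAA channel depolarizes or hyperpolarizes. Primary sensory neurons keep high chloride and are depolarized by GABA at their central terminals, which inhibitory interneurons of the dorsal horn contact. The GABAB receptor works through G proteins and needs both subunits to reach the surface and signal.

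Brightness varied between arrays, with a median signal of 45.4 to 191 units over a local background of 23 to 46, and 55.1% to 71.7% of gene spots lay well above background. Values are log2 signals after quantile normalization, a difference of 1 is therefore a doubling of signal, and levels were never compared between different probes. Differences were tested with limma across 36398 probes, with the Benjamini-Hochberg adjustment, and a gene is said to have risen, fallen or differed where the adjusted p was below 0.05. Array 3 of AN at 3 W and array 2 of AN at 5 W stood apart from their groups in several lists of cell type markers. Many of the results that rest on these arrays are given with and without them. Array 3 of AN at 5 W also read low, at 7.68 in the sensory neuron list and 10.32 in the general neuron list. Arrays 1 and 2 of that group read 11.10 and 10.17 in the first list and 12.28 and 12.66 in the second. The expected markers of the tissue were bright, since the mean log2 signal of 8 myelinating Schwann cell genes was 14.59 to 15.84 on the P0 arrays and 16.53 to 16.88 on those of 3 W and 5 W. Of 4 motor neuron markers, Mnx1 stayed below the background limit on all 24 arrays. At least 2 of the 4 were well above background on every array of each group.

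The neuronal set, consisting of Gad2, Slc32a1 and Slc12a5, was present in both roots at P0, fell in EN and ended higher in AN than in EN at 5 W. Gad2, which encodes the GAD65 decarboxylase of nerve terminals, was measured by a probe at chr2:22549095-22549154 (mm9). In EN the log2 signal of Gad2 was 7.40, 7.32 and 7.11 at P0, 3.51, 5.00 and 6.32 at 1 W, 4.67, 4.16 and 5.54 at 3 W and 3.13, 4.72 and 4.31 at 5 W. AN signals were 7.38, 7.58 and 7.54 at P0, 5.87, 5.03 and 6.42 at 1 W, 6.63, 7.11 and 6.51 at 3 W and 6.83, 9.28 and 6.59 at 5 W. The fibres overlapped at P0 and 1 W and were separate at 3 W and 5 W, where no EN array of 5 W was well above background. Gad2 fell in EN by 2.34 (SE 0.663; adjusted p = 0.0136) at 1 W, by 2.49 (adjusted p = 0.00396) at 3 W and by 3.23 (95% interval -4.62 to -1.84; adjusted p = 0.000451) at 5 W, all against P0 in limma. Because the probe was below background in EN at 5 W, that fall is at least 4.72-fold. The 1 W value rested partly on array 1 of EN, without which it was -1.62 (adjusted p = 0.0978), whereas without array 3 it was -3.02. In AN the change from P0 was -1.72 at 1 W (adjusted p = 0.0717), -0.75 at 3 W and 0.07 at 5 W (interval -1.32 to 1.46), and none passed the test. The last value rested on array 2 of AN, without which it was -0.79 (adjusted p = 0.294).

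Slc32a1, whose product fills inhibitory vesicles with GABA and glycine, followed the same course at chr2:158441324-158441383 (mm9). In EN its log2 signal was 11.09, 11.10 and 10.37 at P0, 6.95, 8.25 and 9.74 at 1 W, 9.17, 8.54 and 9.73 at 3 W and 7.24, 8.05 and 7.90 at 5 W. AN signals were 11.54, 10.97 and 10.62 at P0, 9.73, 8.32 and 9.58 at 1 W, 10.11, 10.62 and 10.27 at 3 W and 10.12, 12.20 and 9.71 at 5 W. Every EN array after P0 lay below the 3 of P0, while the highest AN value of all belonged to array 2 of 5 W. Slc32a1 fell in EN by 2.54 at 1 W (adjusted p = 0.00559), by 1.70 at 3 W (adjusted p = 0.028) and by 3.13 at 5 W (adjusted p = 0.00036; SE 0.627), and it fell in AN at 1 W by 1.83 (adjusted p = 0.0432). The AN changes at 3 W and 5 W were -0.71 and -0.37 and did not pass, and without array 2 of AN the second was -1.13 (adjusted p = 0.122). The AN call of 1 W was lost in every fit that left out 1 of its 6 arrays (adjusted p = 0.0527 to 0.198). The EN call of 3 W was lost in 4 of 6 such fits (adjusted p up to 0.11). Without array 1 of EN at 1 W the first EN value was -1.86, and without array 3 it was -3.26.

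Slc12a5, the KCC2 gene, was read at chr2:164825109-164825168 (mm9) and was well above background on all 24 arrays. In EN its log2 signal was 11.48, 11.30 and 10.87 at P0, 8.90, 9.35 and 10.35 at 1 W, 9.22, 8.72 and 9.80 at 3 W and 8.25, 9.08 and 8.48 at 5 W. AN signals were 11.96, 11.21 and 11.04 at P0, 10.44, 9.41 and 10.45 at 1 W, 10.80, 10.88 and 10.78 at 3 W and 11.04, 13.11 and 9.85 at 5 W. The fibres overlapped at P0 and 1 W and were separate from 3 W. Slc12a5 fell in EN by 1.68 at 1 W (adjusted p = 0.0358), by 1.97 at 3 W (adjusted p = 0.0073) and by 2.61 at 5 W (interval -3.81 to -1.41; adjusted p = 0.000826), or 6.09-fold over the whole period. In AN the changes were -1.31, -0.58 and -0.07 and none passed, and without array 2 of AN at 5 W the last was -0.96 (adjusted p = 0.0862). The EN call of 1 W was lost in 5 of 6 fits that left out 1 array (adjusted p up to 0.151).

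The 2 tested probes of Gad1, which encodes the GAD67 decarboxylase, gave different courses, so the gene's result depends on the probe. The brighter probe, at chr2:70399873-70399932 (mm9), was designed on a predicted transcript model, and the second, at chr2:70439699-70439758, on the curated transcript, 39.8 kb away. The first 30 of the 60 bases of each probe, and of the pair of Gad2 probes that lie 11 kb apart, are shown because the probe decides the direction.
Gad1, predicted model: gtaggaattatattttcccttgccctcacc
Gad1, curated transcript: gagtgcccttaacataatgatttgaacata
Gad2, curated transcript: agtaacaggacaaagaagcaaaaacatcaa
Gad2, cDNA clone: tccacaagtgttttgtaggatcttctttaa
On the curated probe, the EN log2 signal of Gad1 was 7.41, 7.43 and 7.10 at P0, 4.96, 5.17 and 5.93 at 1 W, 5.22, 4.90 and 5.77 at 3 W and 4.63, 5.83 and 5.58 at 5 W. AN signals were 7.84, 7.84 and 7.51 at P0, 6.29, 5.12 and 6.84 at 1 W, 7.19, 7.53 and 7.49 at 3 W and 7.21, 10.45 and 6.70 at 5 W. This probe fell in EN by 1.96, 2.01 and 1.97 at 1 W, 3 W and 5 W (adjusted p = 0.0328, 0.0147 and 0.0166), whereas its AN changes of -1.65, -0.33 and 0.39 did not pass, the last being -0.77 without array 2 of AN at 5 W. The EN call of 1 W was lost in 5 of 6 fits that left out 1 array (adjusted p up to 0.112), and with the slide as a block the values at 3 W and 5 W were -0.47 (adjusted p = 0.645) and -1.02 (adjusted p = 0.134).

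The predicted-model probe of Gad1 moved little. Its EN log2 signal was 7.72, 7.79 and 7.61 at P0, 7.47, 7.16 and 7.82 at 1 W, 7.29, 7.41 and 7.26 at 3 W and 7.38, 7.09 and 7.01 at 5 W. AN signals were 7.89, 7.63 and 7.65 at P0, 7.53, 7.35 and 7.72 at 1 W, 7.21, 7.22 and 6.88 at 3 W and 7.39, 6.46 and 6.95 at 5 W. It fell by 0.55 in EN at 5 W (adjusted p = 0.0254) and by 0.62 and 0.79 in AN at 3 W and 5 W (adjusted p = 0.0138 and 0.00259), and it never differed between the fibres. At 5 W the AN minus EN difference was -0.23 (interval -0.64 to 0.19; adjusted p = 0.563) on this probe and 2.78 (interval 1.40 to 4.15; adjusted p = 0.0141) on the curated one.

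Gad2 showed a similar split in AN. Its cDNA clone probe read 7.11, 6.11 and 6.86 in AN at P0, but by 5 W it read 2.76, 3.77 and 3.61, with no array well above background. On this probe Gad2 fell in AN by 2.45 at 1 W, at least 3.94-fold by 3 W and at least 4.60-fold by 5 W (adjusted p = 0.000155, 3.16e-05 and 8.2e-07), whereas the curated probe at 5 W lay 0.07 from its AN mean of P0, or -0.79 without array 2. No mm9 annotation was at hand to place the probes in exons, introns or untranslated regions, and a probe's strength of binding is part of its level.

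**Figure D1:**
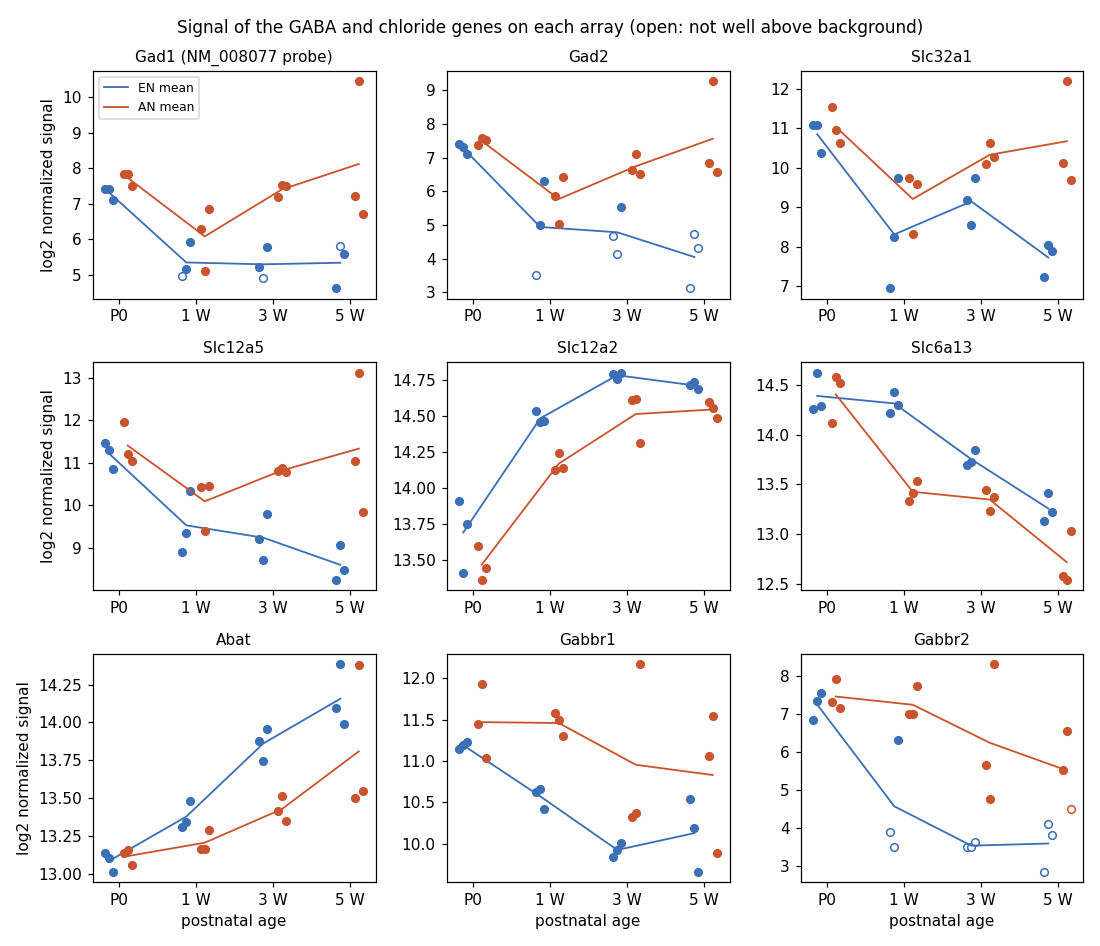
Log2 signal of each of the 9 genes on every array (y axis, a scale of its own in each panel) against postnatal age (x axis), with EN and AN in different colours, lines through the group means and open symbols where the spot was not well above background; Gad1 is shown by its curated-transcript probe, NM_008077. Gad2, Slc32a1 and Slc12a5 overlap at P0 and separate by 3 W, array 2 of AN at 5 W is the highest point of each, and Slc12a2 rises in both fibres.

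Slc12a2, the NKCC1 gene, rose in both fibres and is read by a probe on chromosome 18. In EN its log2 signal was 13.91, 13.41 and 13.75 at P0, 14.53, 14.46 and 14.47 at 1 W, 14.79, 14.76 and 14.80 at 3 W and 14.71, 14.74 and 14.69 at 5 W. AN signals were 13.60, 13.36 and 13.44 at P0, 14.13, 14.24 and 14.14 at 1 W, 14.61, 14.62 and 14.31 at 3 W and 14.60, 14.56 and 14.49 at 5 W. All later arrays of a fibre lay above its 3 P0 arrays. Slc12a2 rose in EN by 0.79, 1.09 and 1.02 (SE 0.117; adjusted p = 8.71e-05, 4.37e-07 and 7.66e-07) and in AN by 0.70, 1.05 and 1.08 (adjusted p = 0.000302, 7.88e-07 and 4e-07) at 1 W, 3 W and 5 W, less than a doubling at 1 W and about a doubling at 3 W and 5 W. Its AN minus EN difference at 5 W was -0.17 (interval -0.41 to 0.08), and the change from P0 to 5 W differed between fibres by 0.06 (interval -0.29 to 0.41), neither of which passed.

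The cotransporters act against each other where a cell holds both. Their joint change was described within each array as log2 Slc12a2 minus log2 Slc12a5, set to 0 at the P0 mean of the fibre. In EN this quantity lay above 0 on every array after P0, at 2.47 ± 0.77, 3.06 ± 0.52 and 3.63 ± 0.41 (mean ± SD, n = 3) at 1 W, 3 W and 5 W. In AN it was 2.01 ± 0.66, 1.63 ± 0.15 and 1.15 ± 1.62, with 1.49, -0.62 and 2.58 on the 3 arrays of 5 W. Only array 2 of AN at 5 W had a value below 0 among the arrays after P0. The quantity compares changes, not the amounts of the transcripts, and was not tested. In bulk roots the 2 transcripts need not come from the same cells, so it does not measure a chloride gradient. With the slide as a block, the EN fall of Slc12a5 at 3 W did not pass.

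Slc6a13, the GAT2 transporter, which in nervous tissue is best known from the meninges, fell in both fibres, and the fibres stood apart at 1 W. The probe lies at chr6:121287597-121287656 (mm9). In EN its log2 signal was 14.26, 14.62 and 14.29 at P0, 14.22, 14.42 and 14.30 at 1 W, 13.69, 13.72 and 13.84 at 3 W and 13.14, 13.41 and 13.22 at 5 W. AN signals were 14.12, 14.58 and 14.52 at P0, 13.33, 13.41 and 13.53 at 1 W, 13.44, 13.23 and 13.37 at 3 W and 12.58, 12.54 and 13.03 at 5 W. At 1 W all AN arrays lay below all EN arrays, although the fibres had overlapped at P0. Slc6a13 fell in AN by 0.98, 1.06 and 1.69 (SE 0.149; adjusted p = 0.00012, 1.13e-05 and 2.7e-08) and in EN by 0.64 at 3 W and 1.13 at 5 W (adjusted p = 0.00151 and 4e-06), whereas the EN value at 1 W was -0.08. The AN change at 1 W minus that of EN was -0.91, which did not pass as an interaction (adjusted p = 0.17). A further fall of 0.63 in AN between 3 W and 5 W also passed (adjusted p = 0.0229). Of 7 leptomeningeal marker genes measured, 4 fell in AN and 3 in EN between P0 and 5 W (50.7% and 54.3% of all probes changed), and the mean log2 signal of that list was 11.81 to 12.07 in AN at P0 and 10.85 to 11.44 at 5 W. Their part in the fall of Slc6a13 was not tested.

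Abat, which starts the breakdown of GABA in mitochondria, rose with age. The probe lies at chr16:8621576-8621635 (mm9). In EN its log2 signal was 13.14, 13.11 and 13.02 at P0, 13.31, 13.34 and 13.48 at 1 W, 13.88, 13.75 and 13.96 at 3 W and 14.10, 14.38 and 13.99 at 5 W. AN signals were 13.14, 13.16 and 13.06 at P0, 13.17, 13.16 and 13.29 at 1 W, 13.42, 13.52 and 13.35 at 3 W and 13.50, 14.38 and 13.55 at 5 W. The EN arrays climbed at each age without overlap, whereas in AN array 2 of 5 W lay well above the other two. Abat rose in EN by 0.78 at 3 W and 1.07 at 5 W (adjusted p = 0.000837 and 3.18e-05) and in AN by 0.69 at 5 W (adjusted p = 0.00217). With 1 array left out this AN value was 0.41 to 0.85 and passed in every fit.

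The GABAB receptor subunits fell in EN, each on its brightest probe. Gabbr2, which couples the receptor to its G protein, was read at chr4:46677374-46677433 (mm9). In EN its log2 signal was 6.85, 7.35 and 7.54 at P0, 3.90, 3.52 and 6.30 at 1 W, 3.50, 3.50 and 3.63 at 3 W and 2.86, 4.11 and 3.82 at 5 W. AN signals were 7.31, 7.92 and 7.15 at P0, 6.99, 6.99 and 7.75 at 1 W, 5.65, 4.78 and 8.30 at 3 W and 5.52, 6.55 and 4.49 at 5 W. No EN array of 3 W or 5 W was well above background, while 8 of the 9 AN arrays after P0 were. Gabbr2 fell in EN by 2.67 at 1 W (adjusted p = 0.0123), and by at least 5.17-fold at 3 W and at least 4.61-fold at 5 W (adjusted p = 0.000412 and 0.000436). In AN it fell at 5 W by 1.94 (adjusted p = 0.0373), a call lost in 5 of 6 fits that left out 1 array. Its AN value at 3 W was -1.22 (adjusted p = 0.183). Without array 3 of AN at 3 W that value was -2.24 (adjusted p = 0.00873), and without array 3 of EN at 1 W the EN value was -3.54. Without array 1 or array 2 of that group the EN value was -2.33 (adjusted p = 0.0616) or -2.14 (adjusted p = 0.0737).

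Gabbr1, the subunit that binds GABA, was read by 3 tested probes that did not move alike. The brightest lies at chr17:37210986-37211045 (mm9), the cDNA clone probe 24.9 kb away and another probe, on the same transcript as the brightest, 1.8 kb away, and the first 30 bases of each are shown because they report opposite courses.
Gabbr1, brightest probe: tacaatcatctctcaaaactactgcatctt
Gabbr1, cDNA clone: cagatggaagaagactgagtcttgtgtata
Gabbr1, other probe of that transcript: aagagaagtcccgactgttggagaaggaaa
On the brightest probe the EN log2 signal was 11.14, 11.20 and 11.23 at P0, 10.63, 10.67 and 10.43 at 1 W, 9.84, 9.93 and 10.01 at 3 W and 10.54, 10.19 and 9.67 at 5 W. AN signals were 11.45, 11.93 and 11.03 at P0, 11.58, 11.49 and 11.31 at 1 W, 10.32, 10.38 and 12.17 at 3 W and 11.06, 11.54 and 9.89 at 5 W. This probe fell in EN by 1.27 at 3 W and 1.06 at 5 W (adjusted p = 0.0144 and 0.0363) and did not pass in AN, but without array 3 of AN at 3 W it fell in AN at 3 W by 1.12 (adjusted p = 0.0113). Its EN call of 5 W was lost in 5 of 6 fits that left out 1 array (adjusted p up to 0.142). The AN arrays of 3 W and 5 W were spread over more than the EN arrays, with array 3 of 3 W above every other array of the gene.

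By contrast, the cDNA clone probe of Gabbr1 rose. Its EN log2 signal was 8.61, 8.36 and 8.27 at P0, 8.68, 8.92 and 8.67 at 1 W, 9.43, 9.15 and 9.25 at 3 W and 9.67, 9.54 and 9.73 at 5 W. AN signals were 8.64, 8.41 and 8.37 at P0, 8.48, 8.67 and 8.48 at 1 W, 9.17, 9.15 and 8.91 at 3 W and 9.78, 9.86 and 9.82 at 5 W. It rose in EN by 0.34, 0.86 and 1.24 (adjusted p = 0.0445, 1.18e-05 and 1.23e-07) and in AN by 0.60 at 3 W and 1.35 at 5 W (adjusted p = 0.000465 and 4.01e-08). The other probe of that transcript gave EN values of -0.91, -0.53 and -0.80, none of which passed, so the fall of Gabbr1 was measured on 1 of its 3 tested probes.

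**Figure D2:**
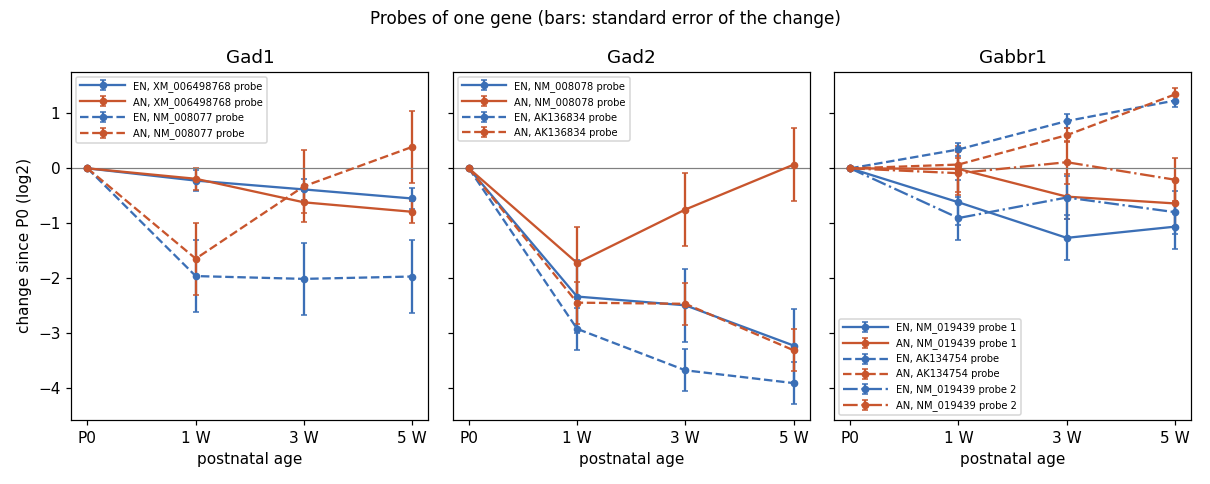
Log2 change since P0 (y axis) against age (x axis) for the tested probes of Gad1, Gad2 and Gabbr1, with standard errors, a panel for each gene, colours for EN and AN and line styles for the probes, named by the transcript they were designed on (XM, predicted model; NM, curated transcript; AK, cDNA clone). In Gad1 the curated probe separates the fibres and the predicted-model probe does not, in Gad2 the cDNA clone probe stays down in AN at 5 W, and in Gabbr1 the cDNA clone probe rises by 1.24 in EN and 1.35 in AN while the brightest probe falls in EN.

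Counted over the 9 genes, 5 changed in EN at 1 W, 8 at 3 W and all 9 at 5 W, against 27.1%, 55.1% and 54.3% of all tested probes. In AN 3, 3 and 5 of the 9 changed, against 21.7%, 51.9% and 50.7%. Rises were confined to Slc12a2 and Abat, and the genes that fell in EN at 5 W were Gad1 (on its predicted-model probe), Gad2, Slc32a1, Slc6a13, Gabbr1, Gabbr2 and Slc12a5. The median change over the 9 was -0.62, -1.27 and -1.13 in EN and -0.22, -0.62 and -0.37 in AN, where that over all probes stayed between 0.02 and 0.07. Arrays of a later age did not overlap those of P0 for 7, 9 and 9 genes in EN (46.5%, 71.3% and 58.9% of all probes) and for 6, 7 and 5 in AN (41.4%, 58.1% and 53.3%). Several of these calls were narrow. Some missed the threshold in part or all of the 6 fits that left out an array. In EN these were Gad2 (1 of 6 fits), Gabbr2 (2) and Slc12a5 (5) at 1 W, Slc32a1 (4) at 3 W, and Gad1 (4) and Gabbr1 (5) at 5 W. In AN they were Slc32a1 at 1 W (6), Gad1 at 3 W (2) and Gabbr2 at 5 W (5). All 3 W arrays lay on a slide without P0 arrays, and with the slide as a block the EN changes at 3 W of Gad2, Slc32a1, Slc12a5 and Gabbr1 were -1.54, -0.65, -0.28 and -0.22 and did not pass. In the same fit the AN values of Gad2, Slc32a1 and Slc12a5, which had been below 0 at 3 W, were 0.21, 0.35 and 1.11, and did not pass either. The slide block also brought the EN count of 5 W from 9 to 7 and the AN counts of 1 W and 5 W to 2 and 4, while the EN count of 1 W became 6.

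**Figure D3:**
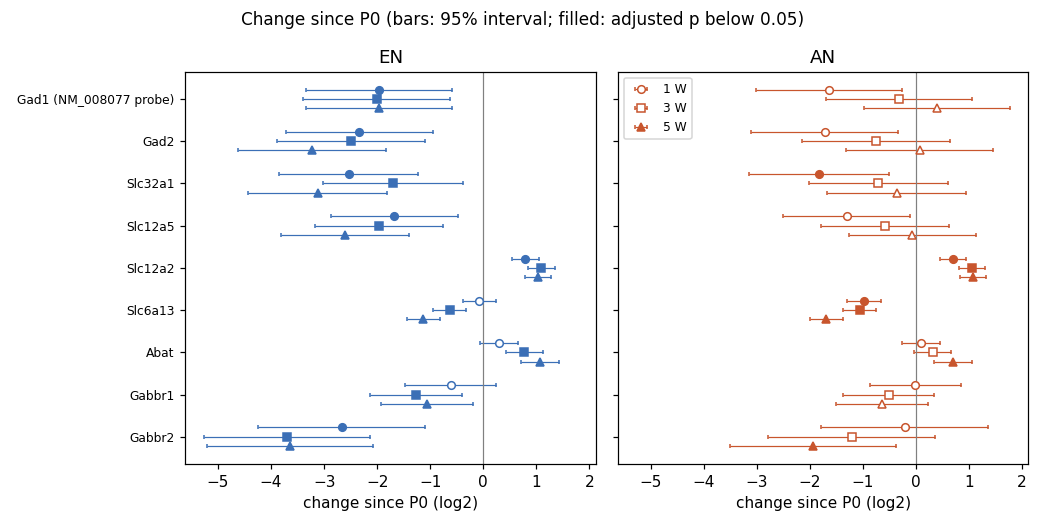
Log2 change from P0 (x axis, with 95% intervals from limma) for the 9 genes (rows) in EN and AN, on the same scale, with circles for 1 W, squares for 3 W and triangles for 5 W, filled where the adjusted p was below 0.05; Gad1 is shown by its curated-transcript probe, NM_008077. In EN at 5 W Gad2, Slc32a1, Slc12a5 and Gabbr2 lie between -3.65 and -2.61, whereas in AN the first 3 lie between -0.37 and 0.07 (-1.13 to -0.79 without array 2 of AN at 5 W), and Slc12a2 and Abat lie above 0 in both.

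The direct comparison of AN with EN asked when the fibres part. At P0 none of the 9 genes differed, against 0.731% of all probes, and none had separate groups (13.3% of probes). At 1 W 1 of the 9 differed (4.04% of probes), since Slc6a13 was 0.89 lower in AN (SE 0.149; adjusted p = 0.0035), a 1.85-fold difference. At 3 W 1 differed (5.92% of probes), namely Gabbr2, on group means at least 2.58-fold higher in AN (log2 difference 2.70; adjusted p = 0.0387). At 5 W 4 differed (6.82% of probes). On group means, Gad2 was at least 5.75-fold higher in AN (3.51, interval 2.12 to 4.90; adjusted p = 0.00288), Slc32a1 7.72-fold (2.95, interval 1.63 to 4.26; adjusted p = 0.00685) and Slc12a5 6.62-fold (2.73, interval 1.53 to 3.93; adjusted p = 0.00623), whereas Slc6a13 was 0.54 lower (adjusted p = 0.0342). The Gad2 difference was measured on its curated probe alone. Its cDNA clone probe was well above background on no AN or EN array of 5 W (means 3.38 and 2.52) and cannot resolve a difference.

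Arrays of the same number shared a slide, and AN and EN could therefore be set against each other within it. At 5 W Gad2 was higher in AN in 3 of 3 pairs, by 3.71, 4.55 and 2.28 on slides 2, 3 and 4. These sizes are not exact, since no EN array of that age was well above background for Gad2. Slc32a1 was higher by 2.88, 4.15 and 1.81 and Slc12a5 by between 1.36 and 4.03 on the same slides. Slc6a13 was lower in AN in all 9 pairs after P0, by 0.76 to 1.01 at 1 W, 0.25 to 0.49 at 3 W and 0.19 to 0.88 at 5 W. Gabbr2 read higher in AN in all 9, by 1.28 to 4.67 at 3 W, where all pairs lay on slide 4. No EN array of 3 W or 5 W was well above background for Gabbr2, so the sizes at these ages are not exact. In the pair of number 3 at 5 W neither array was, so its direction is not resolved. At 1 W the Gad2 difference was 2.37 on slide 1 and 0.02 and 0.10 on slides 2 and 3.

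Taking the pair as a block left the number of genes that differed at 0 at P0 (3.87% of all probes) and brought it to 3, 6 and 6 at the later ages, against 11.1%, 21.3% and 23.8%. The pairs are taken from the array numbers, and at 3 W this pairing is only weakly borne out. At 1 W Gabbr2 (2.67; adjusted p = 0.0249) and Slc12a2 (-0.32; adjusted p = 0.0456) were added. At 3 W the block added Gad2 (1.96; adjusted p = 0.0271), Slc12a5 (1.58; adjusted p = 0.032), Slc6a13 (-0.41; adjusted p = 0.0433), Abat (-0.43; adjusted p = 0.0205) and Gabbr1 (1.03; adjusted p = 0.0473), and the curated Gad1 probe (2.10; adjusted p = 0.0176) passed as well. On the cDNA clone probe of Gabbr1 the AN minus EN difference was -0.21 at 1 W and -0.20 at 3 W, opposite in sign to the 0.89 and 1.03 of the brightest probe, and none of the 4 passed without the block. The 6 added at 3 W had adjusted p-values without the block of 0.0923, 0.12, 0.125, 0.151, 0.162 and 0.0667. At 5 W Abat (-0.35; adjusted p = 0.0432) and Gabbr2 (1.92; adjusted p = 0.0488) were added, from 0.253 and 0.142. All 9 genes had separate groups at 3 W (32.7% of probes), compared with 5 at 1 W and 6 at 5 W (24.7% and 20.1%), and the median AN minus EN difference was 0.56, 1.03 and 0.70 at the 3 ages, where over all probes it lay between -0.07 and -0.03.

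**Figure D4:**
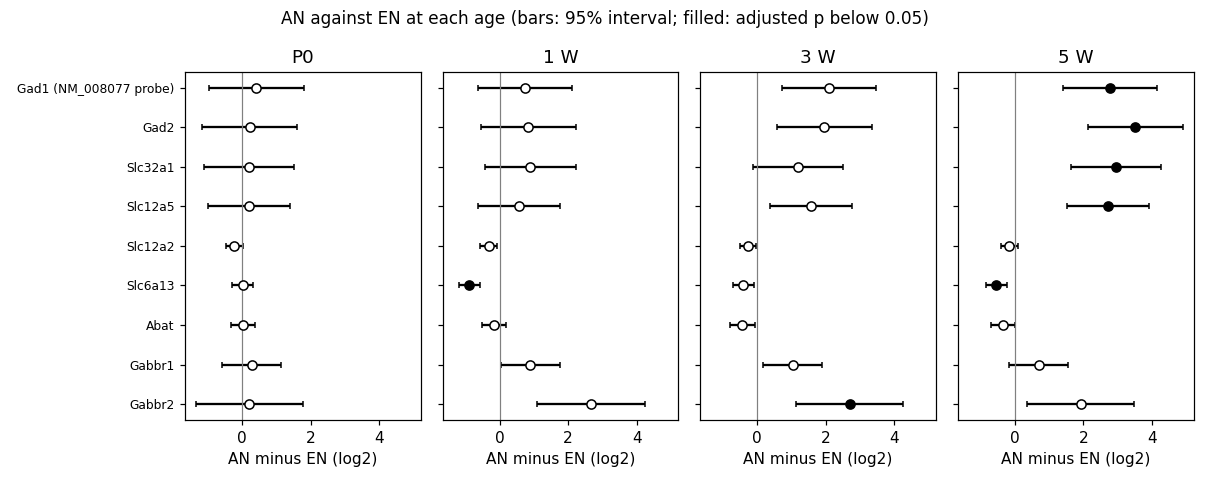
AN minus EN difference in log2 signal (x axis, the same scale in each panel, 95% intervals from limma) for the 9 genes (rows) at each age, filled where the adjusted p was below 0.05, with Gad1 shown by its curated-transcript probe, NM_008077. All intervals include 0 at P0, and at 5 W Gad1, Gad2, Slc32a1 and Slc12a5 lie between 2.73 and 3.51 while Slc6a13 lies at -0.54.

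Array 2 of AN at 5 W held the highest value of Gad2, Slc32a1, Slc12a5 and the curated Gad1 probe, and without it the AN minus EN differences were 2.66, 2.19, 1.84 and 1.61 (adjusted p = 0.0188, 0.0487, 0.0297 and 0.041). Without it the difference of Slc6a13 was -0.45 (adjusted p = 0.155) and that of Abat -0.63 (adjusted p = 0.00439). The Slc6a13 call was lost in 4 of 6 fits that left out 1 array. That of the curated Gad1 probe was lost without array 1 of EN at 5 W (adjusted p = 0.0624). Leaving out array 3 of AN at 5 W instead of array 2 gave 3.47 for Slc12a5 and 3.49 for the curated Gad1 probe. The Gabbr2 difference at 3 W was 1.67 (adjusted p = 0.201) without array 3 of AN and 3.44 without array 2, and it also missed the threshold without any 1 of the EN arrays (adjusted p = 0.104 to 0.112). When only the 6 arrays of 5 W entered the fit, the adjusted p-values of Gad2, Slc32a1, Slc12a5 and Slc6a13 were 0.172, 0.169, 0.245 and 0.325.

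Whether the difference between fibres itself changed since P0 was tested as an interaction. None of the 9 genes passed at any of the 3 later ages, where 0.0632%, 0.621% and 1.16% of all probes did. The interaction at 5 W was 3.29 for Gad2 (interval 1.33 to 5.26; adjusted p = 0.109), 2.76 for Slc32a1 (adjusted p = 0.17) and 2.53 for Slc12a5 (adjusted p = 0.168), and their unadjusted p-values were 0.00242, 0.00591 and 0.00567. The Gad2 value includes EN signals of 5 W that were not well above background. With the pair as a block Gad2 (adjusted p = 0.03) and Slc12a5 (adjusted p = 0.0412) passed at 5 W, where 6.97% of probes did, and none passed at 1 W or 3 W (0.758% and 4.18% of probes).

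Markers of spinal inhibitory neurons fell in both fibres after P0. The list held Slc6a5, the glycine transporter of inhibitory terminals, and the interneuron transcription factor genes Pax2, Pax8, Lhx1, Lhx5 and Tfap2b, of which 5 were tested. Its mean log2 signal was 6.82 to 7.69 in EN and 6.85 to 7.54 in AN at P0, 3.86 to 5.42 and 4.27 to 5.29 at 1 W, 3.97 to 4.61 and 4.88 to 5.33 at 3 W, and 4.01 to 4.35 and 4.68 to 6.46 at 5 W. Of the 5, all fell in EN and 3 in AN between P0 and 5 W (medians -3.48 and -1.55), where 54.3% and 50.7% of all probes changed. Gad2, Slc32a1 and Slc12a5 fell in EN over that time and did not pass in AN. Of the 6 markers, Lhx5, Pax8, Slc6a5 and Tfap2b were well above background on no EN array of 5 W. Tfap2b was so on no AN array of that age. Means, falls and differences that include these signals are therefore not exact. At the 4 ages 0, 0, 1 and 2 of the 5 markers were higher in AN than in EN. Over all probes 0.731%, 4.04%, 5.92% and 6.82% differed. The top value of 5 W belonged to array 2 of AN, the array on which the neuronal set was highest, and Slc6a5 there was 8.32 against 5.30 and 5.53 on the other two.

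Glial markers of the central nervous system stood in the same order on those arrays. The mean of 6 astrocyte genes was 11.50, 12.08 and 11.06 on the AN arrays of 5 W and 9.88 to 10.34 in EN, and 4 of the 6 were higher in AN. Of 8 oligodendrocyte genes 3 were higher in AN at 5 W, with a mean of 9.55 on array 2. Between the fibres of that age 6.82% of all probes differed. Among the other neuronal lists, the spinal excitatory interneuron list was also highest on array 2, at 6.97, 7.71 and 6.51 on the AN arrays of 5 W. So was the general neuron list (12.28, 12.66 and 10.32), but not the motor neuron list (5.45, 5.39 and 5.78). Sensory neuron genes did not peak on array 2 either. Their mean was 11.10, 10.17 and 7.68 on the AN arrays of 5 W and 9.90, 9.57 and 13.65 on those of 3 W, so that array 3 of 3 W, on which Gabbr1 and Gabbr2 were highest, was also highest in Avil, a gene of sensory neurons, at 15.20 against 10.42 and 9.79. At P0 this list overlapped between EN (11.41 to 11.74) and AN (11.16 to 12.60), and at 1 W it was 7.61 to 9.24 in EN and 12.26 to 12.59 in AN. General neuron genes fell in EN as well, 7, 8 and 8 of 10 at 1 W, 3 W and 5 W (medians -2.93, -2.66 and -2.69), and in AN 0, 0 and 5 did. Over all probes 27.1%, 55.1% and 54.3% changed in EN and 21.7%, 51.9% and 50.7% in AN. Of the 10 neuron genes, 6 were higher in AN than in EN at 1 W, 2 at 3 W and 2 at 5 W, against 4.04%, 5.92% and 6.82% of all probes. The part that these cell types had in the values of the 9 genes was not tested.

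**Figure D5:**
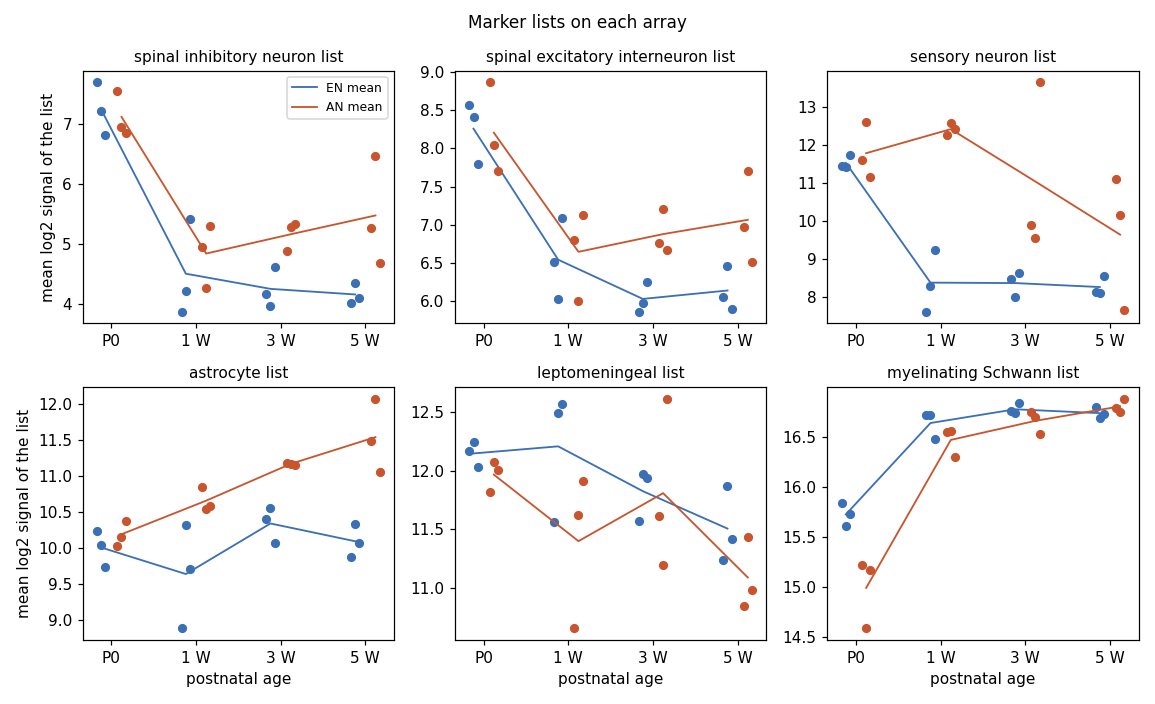
Mean log2 signal of 6 lists of cell type markers on each array (y axis, a scale of its own in each panel) against age (x axis), EN and AN in different colours with lines through the group means. Array 2 of AN at 5 W is the highest AN array of that age in the spinal inhibitory (6.46), spinal excitatory (7.71), astrocyte (12.08) and leptomeningeal (11.44) lists. Array 3 of AN at 3 W is the highest in the sensory neuron list, at 13.65.

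The likeness of the neuronal set over the 24 arrays was described by Pearson's r, to which the groups, ages and odd arrays all contribute. Gad2 was most like Slc12a5 (r = 0.962), Usp29 (0.961) and Slc32a1 (0.959), and the curated Gad1 probe was most like Slc12a5 (0.944), Fam163b (0.944) and Gad2 (0.942). Slc32a1 had Gad2, Cdh22 and Slc12a5 nearest (0.951 for Cdh22 and 0.95 for Slc12a5), and Slc12a5 had Gad2, Usp29 and Matk nearest. The predicted-model Gad1 probe was nearest to Srsf9, Ccnl2 and Ralb, at no more than 0.884. Gabbr1 was most like Jakmip1, Necab1 and Dnm1 (0.96 to 0.956), Gabbr2 like Lingo2, Lrfn5 and Mast1 (0.976 to 0.974), Slc6a13 like Aldh1a2, Cxadr and Epha8 (0.955 to 0.936), Abat like Sh3bgrl, Enoph1 and Acadsb (0.947 to 0.935) and Slc12a2 like Dclk3, H2-DMb1 and Glod4 (0.985 to 0.98). Aldh1a2 is one of the leptomeningeal markers.

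Gad2, Slc32a1 and Slc12a5, all on chromosome 2, were among each other's nearest by r. The curated probe of Gad1, on the same chromosome, had Slc12a5 and Gad2 among its nearest, but it was not among those of Slc32a1 or Slc12a5. The predicted-model Gad1 probe had none of the 3 among its nearest. The 250 bases before the RefSeq starts of these genes (GRCm38.p6, a later build than that of the probes) are therefore shown. Capitals mark the GC box, GGGCGG on either strand.
Gad2 chr2:22622077-22622326 (+): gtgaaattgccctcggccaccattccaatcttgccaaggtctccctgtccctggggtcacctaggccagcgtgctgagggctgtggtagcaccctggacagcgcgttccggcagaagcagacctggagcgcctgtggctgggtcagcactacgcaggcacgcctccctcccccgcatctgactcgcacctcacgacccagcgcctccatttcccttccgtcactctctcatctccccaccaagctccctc
Gad1 chr2:70561879-70562128 (+): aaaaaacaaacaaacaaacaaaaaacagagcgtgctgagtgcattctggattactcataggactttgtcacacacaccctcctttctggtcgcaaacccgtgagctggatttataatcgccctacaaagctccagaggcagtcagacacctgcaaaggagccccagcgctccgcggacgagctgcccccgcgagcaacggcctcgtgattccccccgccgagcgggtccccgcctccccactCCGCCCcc
Slc32a1 chr2:158610508-158610757 (+): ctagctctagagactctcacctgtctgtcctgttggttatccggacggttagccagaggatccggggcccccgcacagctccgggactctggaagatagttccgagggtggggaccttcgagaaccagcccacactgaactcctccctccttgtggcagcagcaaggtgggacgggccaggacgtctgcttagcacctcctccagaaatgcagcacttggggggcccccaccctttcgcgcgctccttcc
Slc12a5 chr2:164960596-164960845 (+): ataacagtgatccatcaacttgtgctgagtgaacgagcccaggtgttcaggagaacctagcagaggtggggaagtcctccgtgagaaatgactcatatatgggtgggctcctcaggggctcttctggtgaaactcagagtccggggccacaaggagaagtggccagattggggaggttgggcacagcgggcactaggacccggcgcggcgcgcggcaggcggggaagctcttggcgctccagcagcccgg
Slc12a5 chr2:164967738-164967987 (+): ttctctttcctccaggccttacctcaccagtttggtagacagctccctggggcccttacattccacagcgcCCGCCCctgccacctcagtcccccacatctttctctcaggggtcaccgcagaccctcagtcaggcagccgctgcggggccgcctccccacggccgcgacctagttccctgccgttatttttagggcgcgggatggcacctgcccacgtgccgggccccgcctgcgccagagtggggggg
The GC box was found once before Gad1 and once before the second start of Slc12a5, and 32.7% of the 32851 windows of this length in the RefSeq table held it. TATAAA, searched on both strands, occurred once before Gad1 and in no other of the member windows searched, against 12.4% of all windows. TTCAGCACC, the left part of the RE1 element to which the neuronal silencer REST binds, occurred in none of the 10 member windows searched, and in 0.301% of all. These covered 7 of the 9 genes, and no window of Slc12a2 or Abat was searched. The windows held 58.0% (Gad1), 64.0% (Gad2), 62.4% (Slc32a1), 61.2% and 67.2% (Slc12a5) G and C, against a median of 52.4%. Matching letters describe the window and were not related to the levels.

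Other genes of these pathways were listed, 55 in 3 lists, of which 50 were tested. Between AN and EN 1, 9, 4 and 9 of the 50 differed at the 4 ages, most of them higher in AN (1, 7, 3 and 8), where 0.731%, 4.04%, 5.92% and 6.82% of all probes differed. In the list of GABA transport, glutamine supply and breakdown, Maob, a monoamine oxidase, was 0.65 higher in AN at P0 (adjusted p = 0.0379), where no member differed, but the call was lost in 5 of 6 fits that left out 1 array (adjusted p up to 0.193). At 1 W Slc6a12, the betaine and GABA transporter, was 0.98 lower in AN (adjusted p = 0.0371) like its relative Slc6a13, and the glutamine carrier Slc38a3 was 0.61 lower (adjusted p = 0.0289). These calls were lost in 6 of 6 (adjusted p = 0.0575 to 0.207) and 5 of 6 such fits. At 3 W Slc38a5 was 0.98 lower (adjusted p = 0.0356, lost in 4 of 6 fits) and Slc38a1, another glutamine carrier, 1.51 higher (adjusted p = 0.00609). At 5 W Slc6a11, the transporter GAT3 of astrocytes, was at least 1.74-fold higher in AN on group means (adjusted p = 0.0119), but its adjusted p was 0.0688 without array 2 of AN. Its AN signals ran from 4.74 to 7.78 and were well above background on 2 of the 3 arrays, so this bound rests on the brightest. Slc6a11 fell in EN at least 2.78-fold by 5 W, while Aldh1a1, an aldehyde dehydrogenase, rose in both (3.46 in EN and 3.97 in AN). Glul, glutamine synthetase, rose by 2.93 in AN, and its EN mean went from 12.06 at P0 to 14.36 at 5 W.

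Among 16 tested genes of chloride transport and its kinases, 9 rose and 1 fell in EN by 5 W, and 8 rose and 0 fell in AN. Over all probes 54.3% and 50.7% changed in either direction. Slc12a7, the KCC4 cotransporter, rose by 2.42 in EN (adjusted p = 2.67e-10), and its AN mean went from 9.83 at P0 to 11.70 at 5 W. Few differed between the fibres. Ckb, brain creatine kinase, was 0.60 higher in AN at 3 W (adjusted p = 0.00917), and Best1, a chloride channel gene, was 0.87 lower at 5 W (adjusted p = 0.0225, or up to 0.109 with 1 array left out).

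Of 18 tested partners and effectors of the GABAB receptor, 7 fell and 3 rose in EN by 5 W, and 5 fell and 3 rose in AN, again near the share of all probes that changed. Kctd8, an auxiliary subunit of the receptor, was at least 12.4-fold higher in AN at 1 W (adjusted p = 0.00488) and at least 3.47-fold at 3 W (adjusted p = 0.0202, or 0.0965 without array 3 of AN). The 3 W call was lost in 4 of 6 fits that left out 1 array, also without any 1 of the EN arrays. Kctd8 fell at least 6.08-fold in EN by 5 W and by 2.53 in AN (adjusted p = 0.0349, or 0.216 without array 3 of AN), and the AN call was lost in 3 of 6 such fits. Rgs4, a brake on G protein signalling, was 4.01 higher in AN at 1 W (adjusted p = 0.00406), and Gnao1, a G protein subunit, 2.99 higher (adjusted p = 0.0179) in groups that did not overlap, with 1 EN spot of Gnao1 left out as an outlier. The Gnao1 call was lost in 4 of 6 fits that left out 1 array (adjusted p up to 0.21). At 5 W Aplp1 was 2.53 higher in AN (adjusted p = 0.00356), or 1.92 without array 2 of AN (adjusted p = 0.0246). The potassium channel gene Kcnj9 was 2.28 higher (adjusted p = 0.0154, or 0.0992 without array 2 of AN and 0.0664 without array 1 of EN). Ajap1 fell by 3.25 in EN and 1.95 in AN (AN value -2.60 without array 2 of AN), and Gprc5b rose by 2.98 in EN and 3.06 in AN. The calcium channel gene Cacna1b fell by 1.90 in AN, and its EN mean went from 10.07 at P0 to 7.555 at 5 W.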

How the data were processed

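Total RNA of 24 samples was labelled with Cy3 and hybridised to Agilent mouse 8 × 60K arrays, which the authors read with Agilent Feature Extraction 10.7.1.1. The scanner files hold, per the file headers, a background-corrected intensity for each spot. The deposited table of log2 values gave correlations of 0.999996 to 1 with the values computed here, array by array, and column medians of 6.31935 to 6.31988, so it is uncentred log2 signal, and its normalization is the authors' quantile scaling. The 9 genes and all lists were chosen with earlier results of these data known.

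Outlier spots were left out, the spots of a probe averaged, and the log2 intensities of 56605 probes quantile normalized. A probe was tested where some group had it well above background on each of its 3 arrays (36398 probes, 64.3%), with limma 3.58.1 in R 4.3.3, in 1 model of 8 group means (16 residual and 18.38 total degrees of freedom), with Benjamini-Hochberg adjusted p-values. Whether the study adjusted its p-values is not given in the sources used here. The number of arrays limits the precision. A fold change of a probe below background in a whole group is a lower bound, the other group's mean against the dimmest signal well above background. This bound holds for group means only, and a single bright array can raise it. Array 2 of AN at 5 W raised the bounds between fibres of Gad2 and Slc6a11, and array 3 of AN at 3 W those of Gabbr2 and Kctd8. Of the 55 pathway genes, up to 3 rises and 3 falls of largest size were named in each comparison of fibres and in 5 W against P0.

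Deviations from the group mean correlated at 0.105 to 0.666 in the 12 AN and EN pairs of 1 number, and at -0.485 to 0.119 in the 24 others. The numbers were taken to pair the samples, whose arrays share a slide. The deviations of a group sum to 0, so the 2 ranges are not independent. At 3 W, where all arrays lay on slide 4, pairs of 1 number gave 0.105 to 0.214. The others of that age gave -0.283 to 0.119, so the pairing is only weakly borne out there. Alternatives changed scaling, background correction, filter, blocks, threshold, probe and arrays.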

Additional observations from a re-analysis of the deposited data

Results flagged for a closer look

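For 2 pathway genes the difference between AN and EN at 5 W was not that at P0, by limma's test of the interaction. It was 1.82 on the log2 scale for Slc38a1 (adjusted p = 0.0458), which had means of 11.64 in EN and 11.70 in AN at P0 and of 8.93 and 10.81 at 5 W. It was 0.78 for Ckb (adjusted p = 0.0422), with means of 13.59 and 13.61 at P0 and of 13.79 and 14.59 at 5 W.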

How the results depend on the processing

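All calls come from 3 arrays a group, and dim probes (Gad2 and Gabbr2 in EN) limit what can be said of their levels. In the count of the 9 genes that differed between AN and EN, the 1 of 1 W became 2 with a replicate block, 3 with the pair as the block, 2 with the slide as a block, 2 with only those arrays fitted, 0 with an added 2-fold minimum and 2 without the odd pair of arrays (array 3 of AN at 3 W and array 2 of AN at 5 W, an alternative chosen after seeing the data). The 1 of 3 W became 2 under 75th percentile scaling, 0 under normexp, without the filter, with probes above background on all 24 arrays or without the odd pair, 6 with the pair block, 5 with the slide block, 4 under unadjusted p with 2-fold, and 2 by the second probes. The 4 of 5 W became 0 with only those arrays fitted. Against P0, the 5 of EN at 1 W became 3 with probes above background on all arrays, and the 8 of 3 W became 4 with the slide block. In AN the 3 of 1 W became 1 with the 2-fold minimum and 5 without the odd pair, the 3 of 3 W became 6 without it, and the 5 of 5 W became 3 with only those arrays fitted and under either 2-fold rule. The 0 interactions became 1 at 1 W with the slide block, without the odd pair or under unadjusted p with 2-fold, 1 at 3 W under the last, and at 5 W 2 with the pair block, 2 with the slide block, 1 without the odd pair and 3 under unadjusted p. Of the other pathway genes, the 1 of P0 became 0 under 75th percentile scaling, without the filter, with only those arrays or with 2-fold, 4 with the pair block, 2 with the slide block and 2 without the odd pair. The 9 of 1 W became 17 with the pair block and 14 without the odd pair, the 4 of 3 W 17 with the pair block, 11 with the slide block, 9 under unadjusted p and 2 with 2-fold, and the 9 of 5 W 20, 15 and, with only those arrays, 0. The 29 of EN at 5 W became 17 under either 2-fold rule. Leaving out each array in turn gave, for the 9 genes, 0 to 0, 1 to 2, 0 to 1 and 3 to 4 between fibres at the 4 ages, 2 to 5, 7 to 8 and 7 to 9 in EN, 2 to 2, 2 to 4 and 4 to 5 in AN, and 0 to 0, 0 to 0 and 0 to 1 interactions; for the other genes 0 to 1, 2 to 9, 2 to 6 and 5 to 12 between fibres, 28 to 32 in EN and 20 to 26 in AN. Among the signs that the second probes turned were those of Gad1 between fibres at 3 W and 5 W (2.10 and 2.78) and in AN at 5 W (0.39), and of Gad2 in AN at 5 W (-3.31). Those of Gabbr1 turned in EN (0.34, 0.86 and 1.24), in AN at 3 W and 5 W (0.60 and 1.35), and between fibres at 1 W and 3 W. Beyond the calls given in the report, the pair block changed no other call of the 9 genes. The causes were not tested.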
